A study of Homo sapiens with 16 samples.

Results

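The 8 genes described here code for proteins that recognise or process uracil and fluorouracil in DNA. They are the uracil glycosylases UNG and SMUG1, the mismatch-specific glycosylases TDG and MBD4, the abasic site endonuclease APEX1, and the mismatch repair proteins MSH6, MSH3 and PMS2. They were chosen by name, with earlier results of these data known. All 8 were found among the 28443 genes that could be joined between the count tables of both experiments. Each of the 8 also passed the filter on low counts in every comparison, with 215 to 15341 reads per library. Gene positions below are those of the experiment 1 tables, which are GRCh38 positions.

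The cells were U2OS, an established human osteosarcoma line that keeps wild-type p53, grown as a bulk culture. One genotype carried MDM2 W329G, introduced by CRISPR/Cas9 editing, and the other was wild type at that residue (WT). MDM2 is the ubiquitin ligase that holds p53 low. The 4 groups, each of 4 libraries, were W329G cells given 50 µM 5-fluorouracil (5-FU) for 24 h, W329G cells given the solvent DMSO for 24 h, WT cells given 50 µM 5-FU for 24 h, and WT cells given DMSO for 24 h. There were 2 lines of each genotype, named cells 1 and cells 2 in the labels, and all of them were treated in each of 2 experiments that different vendors sequenced. Replicates 1 and 2 of a group are cells 1 and cells 2 of experiment 1. By the labels alone, replicates 3 and 4 are the same lines in experiment 2. Whether a line is 1 clone, and whether the experiments began from separate cultures, is not given in the sources used here, so the p-values rest on the spread among these libraries alone, which may be technical. A missense change cannot be checked from gene counts, so genotypes rest on the labels.

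Totals per library ran from 24715999 to 56877328 counts. Mitochondrially encoded genes took 8.0% to 26.09% of the joined counts in W329G 5-FU libraries, 7.16% to 22.06% in W329G DMSO, 17.71% to 31.91% in WT 5-FU and 13.7% to 24.7% in WT DMSO. Mesenchymal and osteoblast markers (VIM, COL1A1, COL1A2, SPARC, RUNX2, ALPL) summed to between 5570 and 13900 CPM over the libraries, and COL1A2 and ALPL contributed least. CPM are counts scaled to a common library size by TMM. The epithelial markers KRT8, KRT18, KRT19, EPCAM and CDH1 were all above 1 CPM in every group and summed to 133 to 618 CPM in W329G 5-FU, 137 to 638 in W329G DMSO, 300 to 686 in WT 5-FU and 258 to 606 in WT DMSO, most of it from KRT8 and KRT18. Their part in the results was not tested. All 5 blood markers averaged below 1 CPM in every group, and of the 4 neural markers GFAP did.

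Uracil enters DNA by misincorporation of dUTP or by deamination of cytosine. 5-FU is converted in cells to a nucleotide that inhibits thymidylate synthase, which raises dUTP, and to fluorouracil triphosphates that polymerases can insert. Glycosylases cut the uracil or fluorouracil base from the sugar, APEX1 then nicks the abasic site, and a polymerase and ligase fill the gap. Mismatch repair works beside this route: MSH6- or MSH3-containing dimers bind mispairs and loops, PMS2 is the endonuclease subunit of the complex that follows, and both routes are drawn on during DNA replication.

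In W329G cells none of the 8 genes passed the edgeR test for a change under 5-FU, while 4 (APEX1, MSH6, MSH3 and SMUG1) did once each 5-FU library was paired with the DMSO library of the same line and experiment. In WT cells the transcripts of UNG, MSH6 and APEX1 fell and that of SMUG1 rose, and MSH3 fell too with the pairing. The response of UNG was called different between the genotypes in edgeR without and with the pairing, and in the DESeq2 test. Its edgeR call without the pairing was lost in 6 of 8 fits that left out a pair. The response of MSH6 was called with the pairing and in the DESeq2 test, but not in edgeR without the pairing. Under DMSO no gene of the 8 was called between the genotypes, whereas under 5-FU UNG, MSH6 and MSH3 were higher in W329G cells than in WT cells. The MSH6 and MSH3 calls were lost in each experiment alone, and that of UNG in experiment 2 alone. In limma with the line as a random block, UNG and MSH6 kept their calls and MSH3 did not. The test throughout, unless another is named, was edgeR's quasi-likelihood test, with p-values adjusted by Benjamini and Hochberg over all tested genes, a threshold of 0.05 and changes given as log2 fold changes ± standard error. In W329G cells edgeR called 0 of the 8 genes, and 3 had an unadjusted p under 0.05, against 0.791% of 16301 tested genes called in either direction (0.196% higher and 0.595% lower). The DESeq2 test called 1 (APEX1, lower), against 4.18% of the 13772 genes to which it gave an adjusted p (1.62% higher and 2.56% lower). In WT cells 3 fell and 1 rose, against 5.25% of all genes called lower and 3.55% called higher (8.8% in all). For the difference between the responses 1 of 8 was called, against 1.21% of all genes (0.705% with a higher value in W329G cells and 0.509% with a lower one), and the DESeq2 test called 2 of 8, both higher, against 3.09% (1.77% higher and 1.32% lower).

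**Figure D1:**
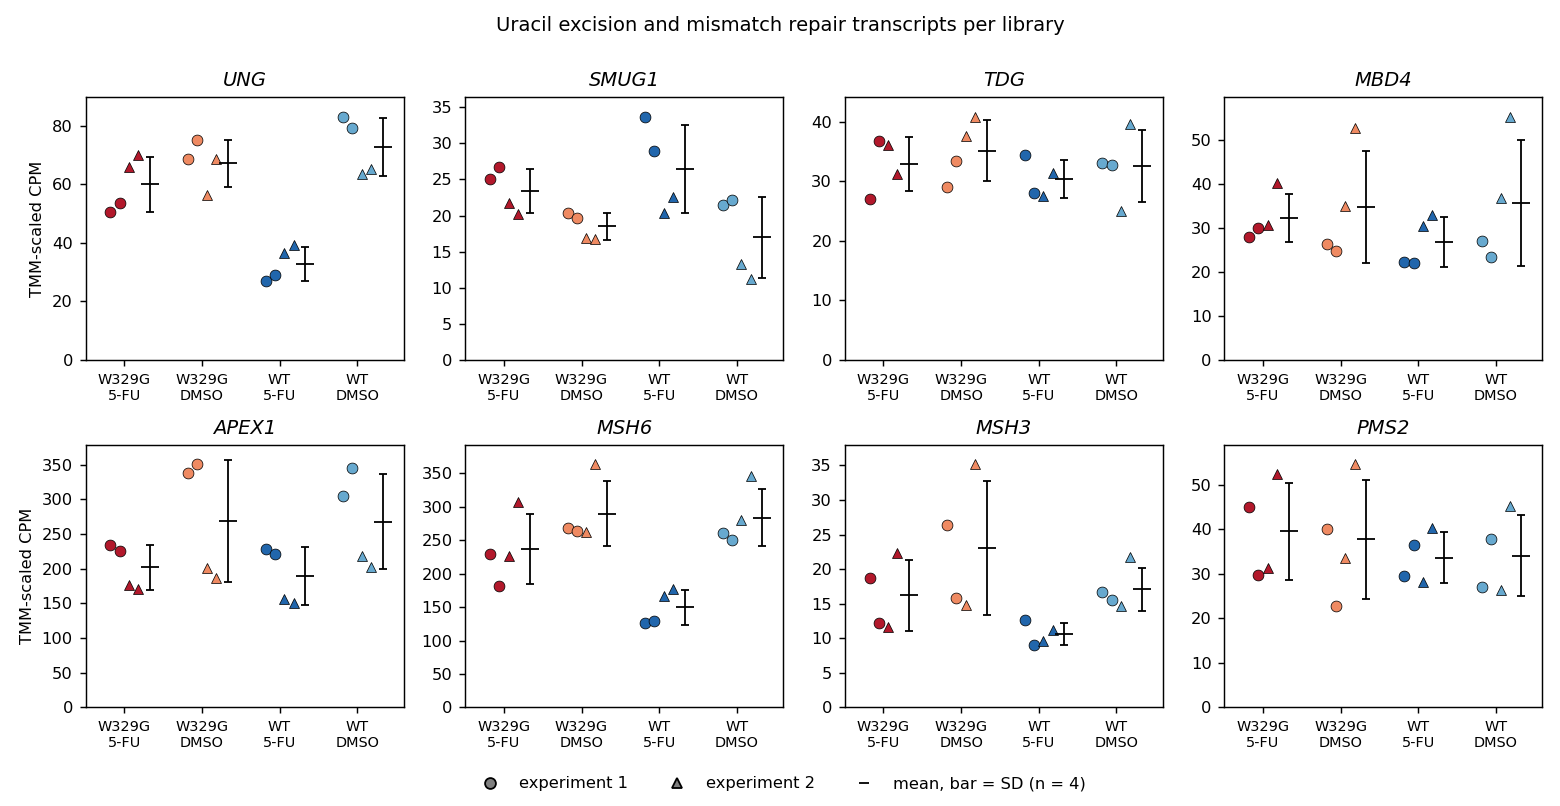
Expression of the 8 genes in every library, as TMM-scaled CPM (vertical axes, starting at 0), for W329G 5-FU, W329G DMSO, WT 5-FU and WT DMSO. Circles are experiment 1 and triangles experiment 2, and the bars beside them are the mean and SD of 4 libraries. The WT 5-FU libraries of UNG sit between 27.0 and 39.1 CPM, below all other libraries of that gene.

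UNG (ENSG00000076248, chr12:109097574-109110992, plus strand) codes for the main uracil glycosylase, which removes uracil behind the replication fork. Its level in W329G cells was 50.6, 53.5, 65.9 and 70.0 CPM under 5-FU, against 68.6, 75.0, 56.2 and 68.7 CPM under DMSO. In WT cells it was 27.0, 29, 36.6 and 39.1 CPM under 5-FU, against 83.1, 79.1, 63.5 and 65.2 CPM under DMSO. All 4 WT 5-FU libraries were below all 4 WT DMSO libraries, while the W329G 5-FU and W329G DMSO libraries overlapped. Group means were 60.0 ± 9.42 CPM in W329G 5-FU, 67.1 ± 7.89 CPM in W329G DMSO, 32.9 ± 5.84 CPM in WT 5-FU and 72.7 ± 9.79 CPM in WT DMSO (SD, n = 4 each).

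In W329G cells UNG changed by -0.17 ± 0.15 under 5-FU (edgeR adjusted p = 0.692). UNG fell in WT cells by 1.15 on the log2 scale (SE 0.15, edgeR adjusted p = 0.000241), to 0.451 of its DMSO level. Between each 5-FU library and the DMSO library of the same line and experiment, the change was -0.44, -0.49, 0.23 and 0.03 in W329G cells, so the experiment 1 pairs were lower under 5-FU and the experiment 2 pairs were not. The same pairs gave -1.62, -1.45, -0.80 and -0.74 in WT cells. The response of UNG was 0.98 ± 0.22 higher in W329G than in WT cells (edgeR adjusted p = 0.0345). With a term for each pair the edgeR adjusted p was 0.018, and in the DESeq2 test it was 0.00249. The edgeR call without pair terms was lost in 6 of the 8 fits that left out a pair of libraries. Those were the fits without WT replicates 1 or 2 or any one of the W329G replicates (adjusted p of 0.0552 to 0.172). That call was also lost in each experiment alone (1.06 in experiment 1 and 0.87 in experiment 2, with adjusted p = 0.192 and 1.0).

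Within the experiments, the WT change of UNG was -1.53 in experiment 1 (adjusted p = 0.00776) and -0.76 in experiment 2 (adjusted p = 0.199). All 4 WT pairs were lower under 5-FU, and none of the 4 fits without a WT pair lost the call. Without the mitochondrially encoded genes the WT change was -1.13 (adjusted p = 0.000385), close to the value with them. A set of 22 G1/S and replication genes moved with UNG. Its summed level was 2170 to 2740 CPM in W329G 5-FU, 2530 to 2910 CPM in W329G DMSO, 934 to 1280 CPM in WT 5-FU and 2580 to 2770 CPM in WT DMSO. Their part in the UNG result was not tested, and in bulk RNA fewer cells in S phase cannot be told apart from less UNG RNA per cell.

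SMUG1 (ENSG00000123415, chr12:54121277-54189008, minus strand) codes for a glycosylase that acts on uracil, hydroxymethyluracil and fluorouracil, and it was the 1 member that rose in WT cells. Its level in W329G cells was 25.1, 26.7, 21.8 and 20.2 CPM under 5-FU, against 20.4, 19.7, 16.9 and 16.8 CPM under DMSO. In WT cells it was 33.7, 28.9, 20.4 and 22.5 CPM under 5-FU, against 21.5, 22.1, 13.3 and 11.2 CPM under DMSO. The 5-FU and DMSO libraries overlapped in both genotypes over the 2 experiments, but within each experiment both 5-FU libraries were above both DMSO libraries in either genotype. SMUG1 was higher under 5-FU in 4 of 4 W329G pairs and 4 of 4 WT pairs.

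In W329G cells SMUG1 changed by 0.34 ± 0.13 under 5-FU (edgeR adjusted p = 0.255), past the threshold with a term for each pair (adjusted p = 0.0495). SMUG1 rose in WT cells by 0.66 ± 0.13 (edgeR adjusted p = 0.00456), or 1.58-fold. The responses differed by -0.32 ± 0.18 between the genotypes (W329G minus WT, edgeR adjusted p = 0.689), so the larger WT value was not shown to differ from the W329G value. In experiment 1 alone the WT rise was 0.53 (adjusted p = 0.177) and in experiment 2 alone it was 0.81 (adjusted p = 0.208).

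With UNG lower and SMUG1 higher, their ratio of CPM moved in WT cells. The ratio was 2.0 to 3.47 in W329G 5-FU libraries (mean 2.63 ± 0.738), 3.32 to 4.09 in W329G DMSO (3.65 ± 0.37), 0.802 to 1.8 in WT 5-FU (1.34 ± 0.507) and 3.58 to 5.85 in WT DMSO (4.52 ± 1.02; SD, n = 4 each). The WT 5-FU libraries were below the libraries of every other group. This is a description of the 2 genes above and not a further test, and since the ratio is not per length it says nothing of which transcript was more abundant.

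TDG (ENSG00000139372, chr12:103965804-103988874, plus strand) removes thymine, uracil and oxidised methylcytosine opposite guanine. MBD4 (ENSG00000129071, chr3:129430944-129440179, minus strand) removes thymine or uracil opposite guanine at CpG sites. Neither was called in any of the 5 comparisons. TDG ranged from 27.1 to 36.8 CPM in W329G 5-FU, 29.1 to 40.9 in W329G DMSO, 27.6 to 34.5 in WT 5-FU and 25.0 to 39.6 in WT DMSO. MBD4 ranged from 28.1 to 40.2 CPM in W329G 5-FU, 24.9 to 52.7 in W329G DMSO, 22.0 to 33 in WT 5-FU and 23.5 to 55.4 in WT DMSO. All 4 groups overlapped for both genes. The 5-FU change of TDG was -0.10 ± 0.15 in W329G cells and -0.10 ± 0.15 in WT cells (edgeR adjusted p = 0.852 and 0.78). That of MBD4 was -0.06 ± 0.17 in W329G cells and -0.37 ± 0.17 in WT cells (edgeR adjusted p = 0.933 and 0.199). MBD4 was lower under 5-FU in 4 of 4 WT pairs and 2 of 4 W329G pairs, and the term for each pair gave an adjusted p of 0.0525 in WT cells.

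APEX1 (ENSG00000100823, chr14:20455191-20457772, plus strand) codes for the endonuclease that nicks the DNA strand at the abasic site left by all 4 glycosylases. Its level in W329G cells was 235, 225, 176 and 171 CPM under 5-FU, against 338, 351, 201 and 187 CPM under DMSO. In WT cells it was 229, 222, 157 and 151 CPM under 5-FU, against 305, 346, 218 and 203 CPM under DMSO. The levels were higher in experiment 1 than in experiment 2 in every group, which makes 5-FU and DMSO libraries overlap over the experiments. Within each experiment, both 5-FU libraries were below both DMSO libraries in either genotype.

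In W329G cells APEX1 changed by -0.37 ± 0.10 under 5-FU (edgeR adjusted p = 0.102). That value was past the threshold in the DESeq2 test (adjusted p = 0.0067) and with a term for each pair (adjusted p = 0.0305). In WT cells APEX1 fell by 0.49 on the log2 scale (SE 0.10, edgeR adjusted p = 0.00586), and the call was lost without WT replicate 2 (adjusted p = 0.0583) and in each experiment alone (-0.52 and -0.45, adjusted p = 0.173 and 0.368). The W329G value was -0.59 in experiment 1 and -0.17 in experiment 2 (adjusted p = 0.534 and 0.85). The responses differed by 0.12 ± 0.14 (W329G minus WT, edgeR adjusted p = 0.956). APEX1 was lower under 5-FU in 4 of 4 W329G pairs and in 4 of 4 WT pairs.

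MSH6 (ENSG00000116062, chr2:47695530-47810101, plus strand) codes for the partner that directs mismatch recognition to base mispairs and short loops, among them guanine opposite fluorouracil or uracil. Its level in W329G cells was 230, 182, 227 and 308 CPM under 5-FU, against 269, 264, 263 and 364 CPM under DMSO. In WT cells it was 126, 130, 167 and 177 CPM under 5-FU, against 261, 250, 280 and 346 CPM under DMSO. The 4 WT 5-FU libraries were the lowest of all 16. The W329G 5-FU and W329G DMSO libraries overlapped over both experiments and were apart in experiment 1.

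In W329G cells MSH6 changed by -0.30 ± 0.13 under 5-FU (edgeR adjusted p = 0.324, and 0.0451 with a term for each pair). MSH6 fell in WT cells by 0.93 on the log2 scale (SE 0.13, edgeR adjusted p = 0.000345), to 0.525 of its DMSO level, and the call was lost in experiment 2 alone (-0.86, adjusted p = 0.269). The W329G pairs gave -0.23, -0.54, -0.21 and -0.24, and the WT pairs -1.05, -0.95, -0.74 and -0.96. Every pair was lower under 5-FU, and the drop in each WT pair exceeded that in each W329G pair. The responses differed by 0.63 ± 0.18 (W329G minus WT), which was not past the threshold (edgeR adjusted p = 0.147) but was with a term for each pair (adjusted p = 0.00994) and in the DESeq2 test (adjusted p = 0.0365).

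MSH3 (ENSG00000113318, chr5:80654648-80876460, plus strand) codes for the alternative partner, which directs recognition to longer loops. Its level in W329G cells was 18.7, 12.2, 11.7 and 22.4 CPM under 5-FU, against 26.4, 15.8, 14.8 and 35.2 CPM under DMSO. In WT cells it was 12.6, 9.02, 9.6 and 11.2 CPM under 5-FU, against 16.7, 15.5, 14.7 and 21.7 CPM under DMSO. The 4 WT 5-FU libraries were below the 4 WT DMSO libraries. Among W329G libraries cells 1 were higher than cells 2 in experiment 1 and lower in experiment 2, under both treatments.

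The 5-FU change of MSH3 was -0.50 ± 0.27 in W329G cells and -0.69 ± 0.27 in WT cells, and neither passed (edgeR adjusted p = 0.459 and 0.143). With a term for each pair both did (adjusted p = 0.0144 in W329G and 0.000525 in WT cells), and all 4 pairs of each genotype were lower under 5-FU. The responses differed by 0.18 ± 0.38 (W329G minus WT, edgeR adjusted p = 0.989). The MSH6 to MSH3 ratio of CPM had means of 15.1 ± 3.02 in W329G 5-FU, 13.8 ± 4.06 in W329G DMSO, 14.4 ± 3.16 in WT 5-FU and 16.7 ± 1.61 in WT DMSO (SD, n = 4 each), and these ranges overlapped.

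PMS2 (ENSG00000122512, chr7:5973239-6009125, minus strand) codes for the endonuclease subunit that cuts the new strand. It ranged from 29.7 to 52.4 CPM in W329G 5-FU, 22.7 to 54.7 in W329G DMSO, 28.2 to 40.4 in WT 5-FU and 26.4 to 45.3 in WT DMSO. As for MSH3, W329G cells 1 were higher than cells 2 in experiment 1 and lower in experiment 2, under both treatments. All groups overlapped, and the 5-FU change was 0.08 ± 0.25 in W329G cells and -0.02 ± 0.25 in WT cells (edgeR adjusted p = 0.939 and 0.981). PMS2 has near-identical copies: in experiment 1, PMS2P1, PMS2CL, PMS2P4 and PMS2P3 held 43.6%, 28.2%, 10.0% and 9.83% of the PMS2 count, so reads may have been split or shared among them and its level is uncertain.

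**Figure D2:**
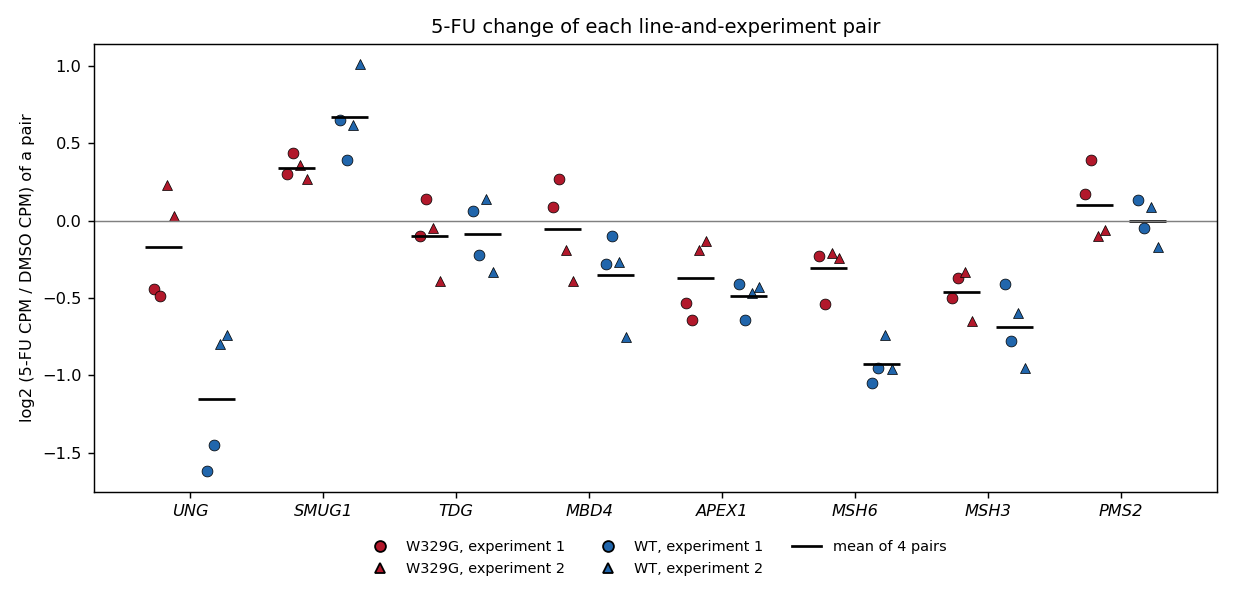
Change under 5-FU of each of the 8 genes within each pair of libraries of the same line and experiment, as the log2 ratio of 5-FU to DMSO CPM (vertical axis), with W329G pairs left of WT pairs. Circles are experiment 1, triangles experiment 2 and bars the mean of 4 pairs. All 4 WT pairs of UNG lie between -1.62 and -0.74 while the W329G pairs lie between -0.49 and 0.23, and SMUG1 is above 0 in all pairs of both genotypes.

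Seen by whole libraries, none of the 8 genes had all 4 W329G 5-FU libraries apart from all 4 W329G DMSO libraries, against 2.63% of tested genes lower and 1.58% higher. In WT cells 3 of the 8 (UNG, MSH6 and MSH3) had all 4 5-FU libraries below all 4 DMSO libraries, against 4.71% of all tested genes, and 0 had them all above, against 3.44%. The median change of the 8 was -0.13 in W329G cells and -0.43 in WT cells, beside 0.02 and 0.01 over all tested genes.

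With a term for each line-and-experiment pair, 3 of the 8 fell (APEX1, MSH6, MSH3) and 1 rose (SMUG1) in W329G cells, and 4 fell (UNG, APEX1, MSH6, MSH3) and 1 rose (SMUG1) in WT cells. That fit called more of all genes too, with 5.85% lower and 5.18% higher in W329G cells (11% in all), and 13.2% lower and 11.7% higher in WT cells (24.9% in all). It called 2 of the 8 (UNG and MSH6) for the difference between the responses, both higher in W329G cells, against 3.62% of all genes higher and 2.55% lower (6.17% in all).

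**Figure D3:**
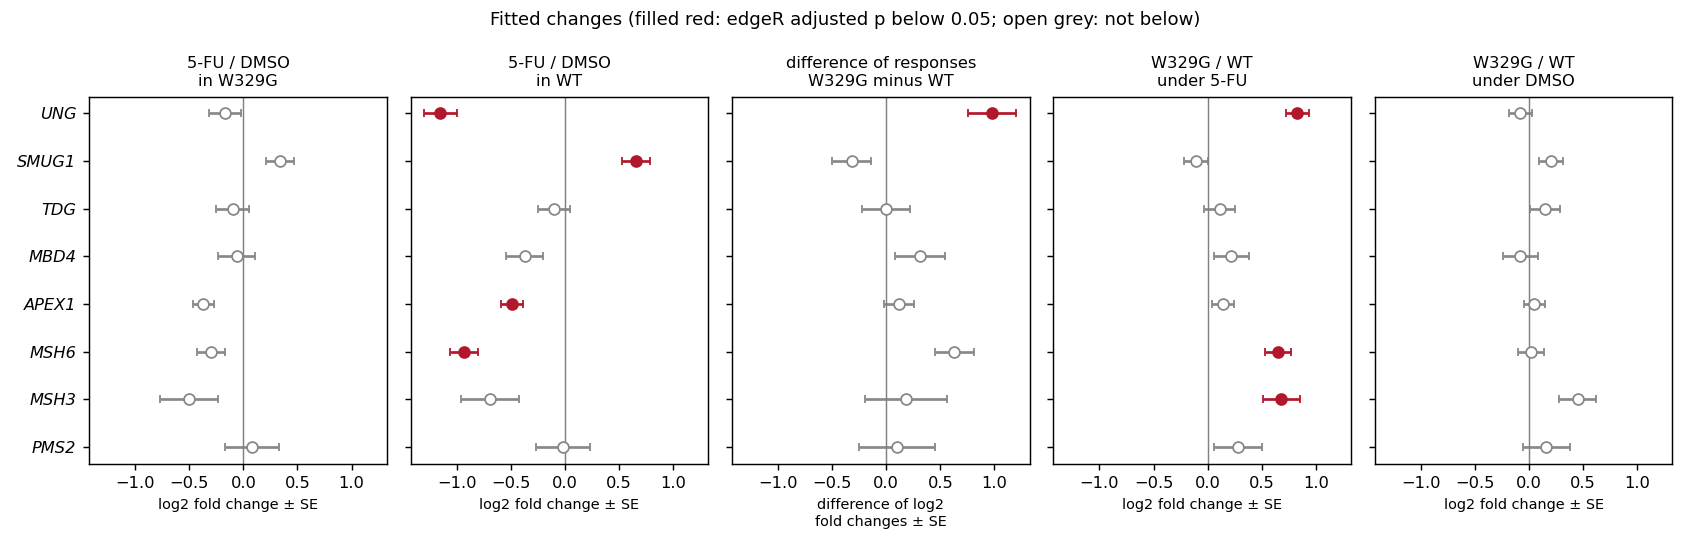
Fitted log2 changes ± SE (horizontal axes) of the 8 genes in the 5 comparisons, with 5-FU over DMSO in W329G and in WT cells, the difference of these, and W329G over WT under 5-FU and under DMSO. Filled red points have an edgeR adjusted p below 0.05 and open grey points do not. No point is filled for the W329G response or for the genotypes under DMSO.

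For the direct comparison of the genotypes, the counts of a line in experiments 1 and 2 were added up, which left 2 sums per genotype and treatment. The fit had no term for the line, so the 5-FU and DMSO sums of a line entered the spread as if separate. Libraries of a line deviated together, so the p-values of these comparisons may be too small. Under 5-FU, 3 of the 8 genes were higher in W329G cells (UNG, MSH6 and MSH3) and 0 were lower, against 7.3% of 17335 tested genes higher and 7.15% lower (14.4% in all). UNG was 0.83 ± 0.11 higher in W329G cells (edgeR adjusted p = 0.00215, 1.78-fold). MSH6 was 0.65 ± 0.12 higher (edgeR adjusted p = 0.00961, 1.57-fold). For both genes all 4 W329G 5-FU libraries were above all 4 WT 5-FU libraries, as for 6.49% of tested genes, while 5.07% had all 4 below.

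MSH3 was 0.68 ± 0.17 higher in W329G cells under 5-FU (edgeR adjusted p = 0.0279, 1.60-fold), although its single libraries overlapped in experiment 1. In experiment 1 alone the edgeR adjusted p was 0.023 for UNG, 0.077 for MSH6 and 0.444 for MSH3. In experiment 2 alone it was 0.116, 0.354 and 0.631 for these genes. In limma with the line as a random block the adjusted p was 0.00138, 0.00261 and 0.179. All 3 calls were lost in some fits that left out a W329G line, where that genotype kept 1 sum per treatment. The estimates stayed above 0 in these fits. Without W329G cells 2 UNG was 0.77, MSH6 0.55 and MSH3 0.53 higher, and without W329G cells 1 they were 0.90, 0.75 and 0.83 higher. MSH3 was also lost without either WT line (adjusted p = 0.0637 and 0.0604). Without WT cells 2 PMS2 was called, at 0.54 higher in W329G cells (adjusted p = 0.0356). The order of W329G cells 1 and cells 2 reversed between the experiments for MSH3 and PMS2. Whether the numbers name the same lines in both experiments was not tested. If cells 1 and cells 2 are exchanged in experiment 2, UNG keeps its call (adjusted p = 0.0349) and MSH6 and MSH3 do not (0.153 and 0.479).

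Under DMSO 0 of the 8 genes were called in edgeR and 0 in the DESeq2 test, with 1 at an unadjusted p under 0.05, against 1.42% of 17335 genes called in either direction in edgeR (0.444% higher and 0.975% lower) and 8.68% in the DESeq2 test (3.58% higher and 5.09% lower). That gene was MSH3, at 0.45 ± 0.17 higher in W329G cells (edgeR adjusted p = 0.192). UNG differed by -0.08 ± 0.11 and MSH6 by 0.02 ± 0.12 (edgeR adjusted p = 0.74 and 0.953). For none of the 8 were all 4 W329G DMSO libraries apart from all 4 WT DMSO libraries, against 1.62% of tested genes higher and 1.81% lower.

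Levels can be set between genes only per length, which the experiment 1 tables allow. On the scale of CPM per kilobase of exon, APEX1 was the highest of the 8 genes in every group, at a mean of 122 in W329G 5-FU, 183 in W329G DMSO, 120 in WT 5-FU and 172 in WT DMSO (n = 2 each). It stayed first when the median transcript length of each gene was used in place of its exon length. The order of the other genes depended on that choice: SMUG1 ranked 7 or 8 by exon length and 2 to 4 by transcript length. MSH3 was last or next to last in every group by either length.

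The start regions of UNG, MSH6 and PMS2 are shown because these held a match to the E2F motif TTTNNCGC, the letters bound by the factors that switch on many G1/S genes. Windows of 250 bases before to 50 bases after the RefSeq start were searched on both strands (RefSeq, GRCh38.p14). The motif was present in 6.89% of 35116 such windows and in at least 1 window of 8.23% of 27305 genes. The windows of TDG, MBD4 and APEX1 held no match, and those of SMUG1 and MSH3 are not shown. Each line gives 30 bases, 5′ to 3′ on the gene's strand, with the match in capitals.
UNG, second start, chr12:109098098-109098127, plus strand: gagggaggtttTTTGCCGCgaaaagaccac
MSH6, first start, chr2:47783137-47783166, plus strand: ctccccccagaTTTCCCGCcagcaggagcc
PMS2, chr7:6009131-6009160, minus strand: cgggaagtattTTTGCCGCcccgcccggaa

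The UNG match begins 63 bases before the second RefSeq start of the gene. The MSH6 match begins 3 bases after its start, in the 5′ untranslated part of exon 1. UNG and MSH6 had all WT 5-FU libraries below all WT DMSO libraries and PMS2 did not, so a match went with both patterns. A match is a run of letters and was not tested as a binding site.

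UNG has 2 RefSeq starts, and the gene is known to make a nuclear and a mitochondrial form from separate starts, which counts per gene do not separate. The stretches before them are shown up to the first base that GENCODE annotates as exon. The second holds the E2F match in capitals and 3 CCAAT boxes on the plus strand, and the first holds no E2F match. The window of the first start has 1 CCAAT, which begins 2 bases before that start and past the stretch shown. Windows of TDG, MBD4, APEX1, MSH6 and PMS2 held CCAAT too, though not every MSH6 window did. CCAAT was present in 34.6% of all windows.
UNG, before the first start, chr12:109097347-109097573, plus strand: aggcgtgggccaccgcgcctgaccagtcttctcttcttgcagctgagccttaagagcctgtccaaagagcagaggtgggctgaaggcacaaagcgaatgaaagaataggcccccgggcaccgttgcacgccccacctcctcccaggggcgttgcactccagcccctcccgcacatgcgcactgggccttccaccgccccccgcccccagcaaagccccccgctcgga
UNG, before the second start, chr12:109097922-109098117, plus strand: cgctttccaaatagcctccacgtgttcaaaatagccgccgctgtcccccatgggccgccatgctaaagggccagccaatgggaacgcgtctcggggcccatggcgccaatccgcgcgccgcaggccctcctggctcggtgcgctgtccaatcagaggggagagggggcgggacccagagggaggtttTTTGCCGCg

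The other genes of the pathways were taken from lists chosen by function, with earlier results of these data known. The counts called in a list therefore describe these data, and the shares over all genes beside them are no independent test. Of 20 base excision partners, 0 were called in W329G cells in edgeR (2 at an unadjusted p under 0.05 and 0 in the DESeq2 test), whereas 7 fell and 0 rose in WT cells, against 5.25% lower and 3.55% higher over all genes. FEN1, the nuclease that trims flaps in long-patch repair and at Okazaki fragments, fell by 1.48 in WT cells (SE 0.13, edgeR adjusted p = 6.17e-06). PARP2, which marks strand breaks, fell by 0.88 (SE 0.12, edgeR adjusted p = 0.000203), and LIG1, the replicative ligase, fell by 0.72 (SE 0.13, edgeR adjusted p = 0.00282). The median of the list was 0.02 in W329G and -0.26 in WT cells. With a term for each pair 1 rose in W329G cells (NEIL1), where 5.18% of all genes did. In WT cells 10 fell and 3 (NEIL1, POLL and APTX) rose with those terms, against 13.2% and 11.7% of all genes.

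The responses of FEN1 and PARP2 differed between the genotypes, by 1.27 ± 0.18 and 0.82 ± 0.16 (W329G minus WT, edgeR adjusted p = 0.00222 and 0.0188). Of all genes 0.705% were called higher there and 0.509% lower. With a term for each pair NEIL3 and XRCC1 joined them, where 3.62% of all genes were called higher and 2.55% lower. Under 5-FU 5 of the 20 genes were higher in W329G than in WT cells and 1, MPG, was lower, against 7.3% of all genes higher and 7.15% lower. The highest of them was NEIL3, a glycosylase of replicating cells, at 1.26 ± 0.15 (edgeR adjusted p = 0.0014), followed by FEN1 at 0.91 ± 0.10, PARP2 at 0.80 ± 0.12, PARP1 at 0.73 ± 0.10 and APEX2 at 0.39 ± 0.10.

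Of 18 mismatch repair partners, 0 were called in W329G cells in edgeR (2 at an unadjusted p under 0.05 and 0 in the DESeq2 test), whereas 12 fell and 1 rose in WT cells, against the same 5.25% and 3.55%. RFC2 and RFC5, subunits of the clamp loader that places PCNA on DNA, fell in WT cells by 1.12 and 0.93 (SE 0.11 and 0.14, edgeR adjusted p = 1.24e-05 and 0.000465). POLD3, a subunit of the polymerase that resynthesises the excised strand, fell by 1.16 (SE 0.15, edgeR adjusted p = 0.000126). The 1 that rose was POLD4, another subunit of that polymerase, at 0.69 ± 0.16. PCNA and HMGB1 fell in W329G cells with a term for each pair (adjusted p = 0.0126 and 0.0349), where 5.85% of all genes did. LIG1 stands in this list and in the one before.

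The median of the mismatch repair list was -0.05 in W329G and -0.64 in WT cells. RFC2, POLD3, RFC5 and EXO1 responded differently in the genotypes, with differences of 1.02, 1.19, 1.03 and 1.58 (W329G minus WT, SE 0.15 to 0.30), where 0.705% of all genes were called higher. With a term for each pair 8 were higher and POLD4 was lower, against 3.62% and 2.55% of all genes. Under 5-FU 10 of the 18 were higher in W329G than in WT cells and POLD4 was lower, against the same 7.3% and 7.15% of all genes. EXO1, the nuclease that digests the mismatched strand, was 2.00 ± 0.17 higher (edgeR adjusted p = 0.00048). Its mean level was 50.5 ± 18.4 CPM in W329G 5-FU, 44.2 ± 20.5 CPM in W329G DMSO, 12.4 ± 3.97 CPM in WT 5-FU and 31.8 ± 10.5 CPM in WT DMSO (SD, n = 4 each).

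Of 7 genes that set the supply of dUTP and thymidylate, 0 were called in W329G cells (0 at an unadjusted p under 0.05 and 0 in the DESeq2 test), whereas 3 fell and 0 rose in WT cells, against 5.25% and 3.55% of all genes. These were SHMT1 of the folate cycle at -0.80 ± 0.14, the thymidine kinase TK1 at -0.84 ± 0.19, and DUT, the enzyme that destroys dUTP, at -0.79 ± 0.18 (edgeR adjusted p = 0.00214 to 0.0121). TYMS, the thymidylate synthase that 5-FU inhibits, changed by -0.12 ± 0.14 in W329G cells and -0.37 ± 0.15 in WT cells (edgeR adjusted p = 0.797 and 0.142; 0.00825 in WT cells with a term for each pair). The difference between the responses was called for 0 of the 7 in edgeR (2 at an unadjusted p under 0.05), against 1.21% of all genes. The DESeq2 test called it for 2, both higher in W329G cells, against 1.77% of all genes higher and 1.32% lower. With a term for each pair it was called for SHMT1 and TK1, both higher, against 3.62% of all genes higher and 2.55% lower.

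DUT was the 1 gene of that list that edgeR called between the genotypes under DMSO. It was 0.67 ± 0.12 higher in W329G cells (edgeR adjusted p = 0.0395), where 0.444% of all genes were called higher and 0.975% lower. The DESeq2 test called 1 of the list higher and 1 lower, against 3.58% and 5.09% of all genes. Under 5-FU 4 were higher and 0 lower, against 7.3% and 7.15% of all genes: DUT was 1.11 ± 0.12, TK1 0.90 ± 0.15, SHMT1 0.70 ± 0.12 and DTYMK 0.78 ± 0.16 higher in W329G cells (edgeR adjusted p = 0.00115 to 0.0122). DUT averaged 79.0 ± 14.8 CPM in W329G 5-FU, 97.4 ± 20.3 CPM in W329G DMSO, 36.9 ± 2.94 CPM in WT 5-FU and 64.7 ± 15.4 CPM in WT DMSO (SD, n = 4 each).

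Of the 9 cytosine deaminases listed, which make uracil from cytosine, 6 passed the filter. APOBEC3H passed it through WT 5-FU alone, the 1 group with any library at the filter, so it had to differ there and is given as levels with no test. It averaged 0.0874 CPM in W329G 5-FU, 0.0641 CPM in W329G DMSO, 0.65 CPM in WT 5-FU and 0.0718 CPM in WT DMSO. In W329G cells no deaminase was called in edgeR, with 1 at an unadjusted p under 0.05. The DESeq2 test and the term for each pair each called 1, which under the pair terms was APOBEC3D (1.42, adjusted p = 0.0012). Both calls were of a rise, where 1.62% of all genes rose in the DESeq2 test and 5.18% with pair terms. In WT cells APOBEC3C and APOBEC3D rose by 0.72 ± 0.12 and 1.78 ± 0.39 (edgeR adjusted p = 0.00188 and 0.00951), while APOBEC3B fell by 0.85 (SE 0.19, edgeR adjusted p = 0.0101), where 3.55% of all genes rose and 5.25% fell. APOBEC3F, at 0.51 ± 0.16, was called with a term for each pair (adjusted p = 0.00798, and 0.0534 without those terms), where 11.7% of all genes rose. APOBEC3C averaged 43.6 ± 7.55 CPM in W329G 5-FU, 49.1 ± 6.99 CPM in W329G DMSO, 99.7 ± 10.7 CPM in WT 5-FU and 60.4 ± 0.467 CPM in WT DMSO (SD, n = 4 each).

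The response of APOBEC3C differed by -0.88 ± 0.18 (W329G minus WT, edgeR adjusted p = 0.0188), where 0.509% of all genes were called lower. With a term for each pair that of APOBEC3B differed too, at 0.55 in the fit without those terms (adjusted p = 0.0387 with them and 0.558 without). The fit with pair terms called 3.62% of all genes higher and 2.55% lower. Under 5-FU APOBEC3C and APOBEC3D differed by -1.14 ± 0.11 and -1.43 ± 0.28 between W329G and WT cells, lower in W329G cells, and APOBEC3B was 0.66 ± 0.13 higher (edgeR adjusted p = 0.000589 to 0.0122), against 7.15% of all genes lower and 7.3% higher.

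Of 22 G1/S and replication genes 0 were called in W329G cells in edgeR, against 0.791% of all genes. At an unadjusted p under 0.05 there was 1, and the DESeq2 test called 1, against 4.18% of all genes. Values ran from -0.56 to 0.14, with a median of -0.09. MCM6 fell with a term for each pair (-0.56, adjusted p = 0.0141), where 5.85% of all genes did. In WT cells all 22 fell, by 0.77 to 1.82, with a median of -1.30, where 5.25% of all genes were called lower. The responses of 17 differed between the genotypes, all with a higher value in W329G cells, against 0.705% of all genes. With a term for each pair 22 did, against 3.62%. All 22 were higher in W329G than in WT cells under 5-FU, by 0.62 to 1.94, against 7.3% of all genes. CHAF1A, a histone chaperone of the replication fork, averaged 59.9 ± 4.46 CPM in W329G 5-FU, 63.4 ± 10.1 CPM in W329G DMSO, 25.9 ± 3.32 CPM in WT 5-FU and 74.2 ± 7.11 CPM in WT DMSO (SD, n = 4 each). GINS2 and CDC45, which belong to the replicative helicase complex, fell in WT cells by 1.44 and 1.36 (SE 0.13 each, edgeR adjusted p = 1.04e-05 and 1.74e-05). RRM2, the small subunit of ribonucleotide reductase, CHAF1B and E2F2 were 1.94 ± 0.13, 1.91 ± 0.15 and 1.71 ± 0.14 higher in W329G than in WT cells under 5-FU (edgeR adjusted p = 0.000225 to 0.000386). Under DMSO 0 of the 22 were called in edgeR, against 1.42% of all genes, with 3 at an unadjusted p under 0.05. The DESeq2 test called 2, against 8.68% of all genes.

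Under DMSO the repair lists were not called in edgeR either, where 1.42% of all genes were (8.68% in the DESeq2 test). Of the base excision partners 0 were called between W329G and WT cells in edgeR (6 at an unadjusted p under 0.05, and 2 lower in the DESeq2 test). Of the mismatch repair partners 0 were called in edgeR (3 at an unadjusted p under 0.05, and 2 lower in the DESeq2 test), and of the 7 deaminases that passed the filter of that comparison 0 were (2 at an unadjusted p under 0.05, and 1 lower in the DESeq2 test). Set beside the G1/S list, the WT changes of UNG (-1.15) and MSH6 (-0.93) lie within its range of -1.82 to -0.77. That of MSH3 (-0.69, SE 0.27) lies past its edge by less than the SE, so MSH3 is not shown to differ from the list. Those of APEX1 (-0.49), MBD4 (-0.37), TDG (-0.10), PMS2 (-0.02) and SMUG1 (0.66) lie outside it.

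**Figure D4:**
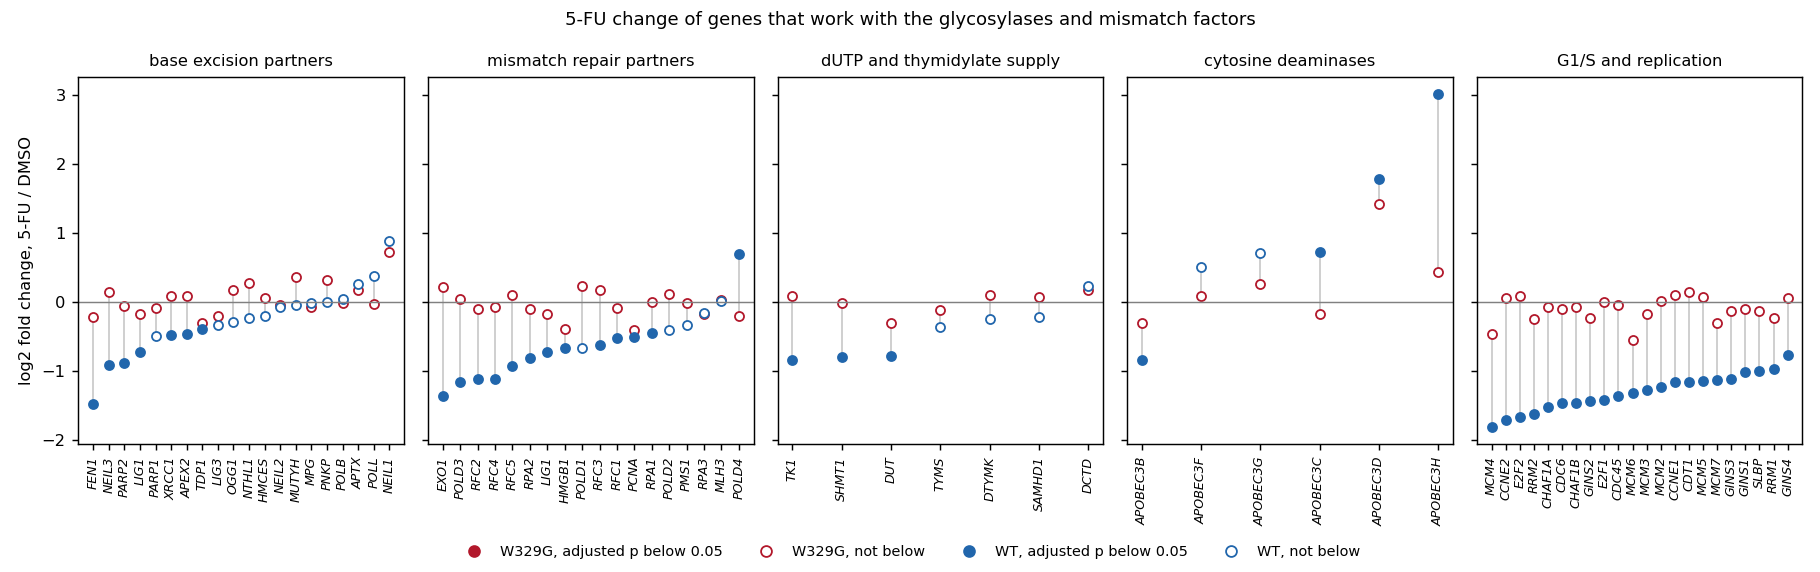
Log2 change under 5-FU (vertical axis) of the measured genes of 5 lists, in W329G cells (red) and WT cells (blue). Filled points have an edgeR adjusted p below 0.05, and grey lines join the values of a gene. All 22 G1/S genes are filled and below 0 in WT cells, and no gene of these lists is filled in W329G cells. APOBEC3H is drawn although it passed the count filter through WT 5-FU alone, so its fill in WT cells is not a result.

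Whether counting used strand is not given in the sources used here, and without strand the reads of overlapping genes on opposite strands cannot be told apart. In experiment 1 the whole count of IFT122 was 81.6% of that of MBD4, and that of LINC02381 was 42.6% of SMUG1. FBXO11 had 24.7% of the MSH6 count and PIP4P1 11.2% of the APEX1 count. These shares are of whole genes, and reads within the overlap were not counted apart. IFT122 starts at chr3:129440036 and meets only the end of MBD4 at 129440179, while LINC02381 (chr12:54126098-54142493) lies within SMUG1. No change is given for LINC02381, and its part in the SMUG1 rise was not tested. FBXO11 changed in WT cells by -0.15 ± 0.11 (edgeR adjusted p = 0.495) and PIP4P1 by 0.03 ± 0.11 (edgeR adjusted p = 0.928), unlike MSH6 and APEX1. IFT122 changed by -0.35 ± 0.13 in WT cells (edgeR adjusted p = 0.101, and 0.0436 with a term for each pair), close to MBD4 at -0.37. For MSH3 no such share is given, and the same limit holds. Pseudogene copies of UNG, SMUG1 and TDG held under 1% of the counts of those genes.

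Of the genes with opposite-strand starts near a member, OSGEP starts 86 bases from APEX1, UQCC6 96 bases from TDG, AIMP2 120 bases from PMS2 and IFT122 143 bases from MBD4. OSGEP, a tRNA-modifying enzyme, changed by 0.03 ± 0.13 in W329G cells and -0.31 ± 0.13 in WT cells (edgeR adjusted p = 0.955 and 0.182). AIMP2, a scaffold of tRNA synthetases, changed by -0.21 ± 0.18 and -0.31 ± 0.18 in W329G and WT cells (edgeR adjusted p = 0.675 and 0.349; 0.0142 in WT cells with a term for each pair).

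The genes whose profiles were most like each member were found by the root mean square distance of log2 CPM over the 16 libraries, centred within each experiment, among 11236 genes with a mean of at least 5 CPM. For UNG these were MCM3 at 0.119, SLBP at 0.120 and RFC2 at 0.153, where the median gene lay at 0.534. MCM3 is a subunit of the replicative helicase and SLBP binds histone mRNA. For MSH6 they were POLA1, a subunit of the priming polymerase, at 0.111, SMCHD1 at 0.121 and LMNB1, a nuclear lamin, at 0.122 (median 0.468). For MSH3 they were KIF20B, CEP55 and CTDSPL2 at 0.127, 0.149 and 0.150 (median 0.545), of which KIF20B and CEP55 act in cytokinesis.

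SMUG1 was nearest to EGFLAM, ZFYVE27 and SDHAF2, at 0.138 to 0.140 (median 0.402), and APEX1 to NONO, EIF3D and PRRC1, at 0.088 to 0.097 (median 0.345). The nearest genes of TDG were MED17, JRKL and ELMOD2, at 0.099 to 0.103 (median 0.327). FRG1FP at 0.084 and ZNF782 at 0.094 were among the nearest to MBD4 (median 0.349), and those of PMS2 were MRPL47, ZHX1 and EPDR1, at 0.116 to 0.130 (median 0.426). The 16 libraries share lines and treatments, so these distances describe this data set, and genes that hardly vary lie near each other by this measure whatever their pattern.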

How the data were processed

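Poly-A RNA of 16 libraries was sequenced, and the deposited values are raw counts per gene with no normalization, as the authors' tables give them. Per the file headers, the experiment 1 tables list Ensembl genes with position and exon length, and the experiment 2 tables list gene symbols. Per the submitters' processing notes the build was hg19, but 96.1% of 56898 experiment 1 genes have the same start and end as in GENCODE release 29, a GRCh38 annotation, so positions are given as GRCh38. The sources used here name no aligner, counter or strand setting. Of 57500 and 28890 genes, 28443 were joined by symbol and 14 ambiguous symbols were left out, which kept 97.64% to 98.63% of the counts of each library. The 26 largest experiment 2 values, those with 7 digits or more, each end in 0 and appear rounded.

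Counts were scaled by TMM and tested with edgeR 4.0.16 (R 4.3.3) by quasi-likelihood after filterByExpr, with p-values adjusted by Benjamini and Hochberg over all tested genes. The 5-FU responses and their difference were fitted on 16 libraries with a term for experiment, and the genotypes on 8 sums of counts, 1 for each line and treatment. The alternatives were DESeq2 1.42.0 (its size factors and its test), no filter beyond 1 read, leaving out mitochondrially encoded genes, each experiment alone, leaving out each pair or line, limma 3.58.1 with the line as a random block, exchanged cell numbers in experiment 2, and a term for each line-and-experiment pair. 5-FU and DMSO libraries of a pair deviated together (correlations of 0.487 to 0.708 over the 4 pairs of lines), and the labels give them the same line and experiment. A chi-square test of the 2 lines of a group gave 63.9 to 197 per degree of freedom, so none of these pairs was 1 library deposited again. The edgeR fits were run on simulated counts with known changes. These counts held no experiment, line or pair effects, so that run does not show how the fits behave with such effects.

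The members and the lists were chosen with earlier results of these data known. From each list, the 3 called genes with the smallest p in each comparison are named; further genes that make up a count of 5 or fewer were named after their values were seen. Some genes and sequences are not reported here. Promoter sequences are from RefSeq (GRCh38.p14).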

Additional observations from a re-analysis of the deposited data

Results flagged for a closer look

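The MSH6 level of replicate 4 of W329G DMSO, 364 CPM, lay far above the other libraries of that group, which held 263 to 269 CPM. Among 32 groups of 4 libraries this was the 1 with such a gap, and chance gives about 1 in 20 groups. That library also had the highest level of MSH3 (35.2 CPM) of all 16. Replicate 4, which is cells 2 of experiment 2, held the highest MSH6 level of every other group too. It was 308 CPM in W329G 5-FU, 346 CPM in WT DMSO and 177 CPM in WT 5-FU.

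The 5-FU response of UNG differed between the genotypes by 0.98 on the log2 scale (W329G minus WT, SE 0.22, edgeR adjusted p = 0.0345), with a change of -0.17 in W329G cells and -1.15 in WT cells. Each of the 4 WT pairs was lower under 5-FU than any of the 4 W329G pairs. The edgeR adjusted p ranged from 0.0351 to 0.172 over the 8 fits that left out a pair. It was 0.018 in edgeR with a term for each pair, and 0.00249 in the DESeq2 test.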

How the results depend on the processing

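Among values of the 8 genes under alternatives, 413 kept their direction and side of the threshold, 30 lost a call, 10 gained one and 35 changed sign; no called value changed sign, and the causes were not tested. In W329G cells 129 genes were called, against 576 in the DESeq2 test, 1798 with pair terms, 0 in either experiment alone (1101 and 879 at an unadjusted p under 0.05) and 11 to 22 without 1 pair; of the 8 genes 0 were called, against 1 in the DESeq2 test, 4 with pair terms and 0 to 0 without 1 pair. In WT cells 1435 genes were called, against 204 in experiment 1, 0 in experiment 2 (edgeR, 1746 at an unadjusted p under 0.05) and 4054 with pair terms. Without 1 WT pair the count was 662 to 1177, and 3 to 4 of the 8 genes were called (2 in experiment 1 alone, 0 in experiment 2 alone). For the difference 198 genes were called, against 474 in the DESeq2 test, 1006 with pair terms, 0 in either experiment alone (811 and 634 at an unadjusted p under 0.05) and 85 to 204 without 1 pair; of the 8 genes 1 was called, against 2 in the DESeq2 test and with pair terms, 0 in either experiment alone, and 0 to 1 without 1 pair. Between the genotypes under DMSO 246 genes were called, against 1271 in the DESeq2 test, 892 with no filter, 0 in experiment 1 (799 at an unadjusted p under 0.05), 4 in experiment 2, 2 with exchanged cell numbers and 1 to 2288 without 1 line, and 0 to 1 of the 8 genes were called without 1 line (PMS2, without WT cells 2, 0.51). Under 5-FU 2504 were called, against 419 in experiment 1, 30 in experiment 2, 221 with exchanged cell numbers and 180 to 2951 without 1 line; of the 8 genes 3 were called, against 1, 0 and 1 in those settings and 0 to 3 without 1 line, where the 3 called without WT cells 2 were UNG, MSH6 and PMS2. A genotype comparison has no pair terms, since lines of different genotypes do not pair, and a line left alone is assumed to vary like the others.

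The values that changed sign were all uncalled, and ranges here are over fits that leave out a pair or a line. In W329G cells UNG was 0.11 and PMS2 -0.09 in experiment 2 (PMS2 range -0.01 to 0.14), and TDG was 0.03 and MBD4 0.18 in experiment 1 (ranges -0.2 to 0.00383 and -0.18 to 0.07). In WT cells PMS2 was 0.00458 with DESeq2 size factors, 0.00473 in the DESeq2 test, 0.0021 without mitochondrially encoded genes and 0.03 in experiment 1 (range -0.06 to 0.04). For the difference TDG was 0.1 (range -0.11 to 0.08) and APEX1 -0.06 in experiment 1, and PMS2 was -0.03 in experiment 2. Under DMSO the genotype difference in experiment 1 was -0.1 for SMUG1, -0.06 for TDG, 0.04 for MBD4 and -0.03 for PMS2, and in experiment 2 it was -0.13 for APEX1 and -0.000959 for MSH6. MSH6 was -0.01 with exchanged numbers and APEX1 -0.02 in limma. The ranges under DMSO were -0.17 to 0.01 for UNG, -0.04 to 0.36 for TDG, -0.25 to 0.07 for MBD4, -0.02 to 0.12 for APEX1, -0.09 to 0.12 for MSH6 and -0.13 to 0.51 for PMS2. MSH3, at 215 reads in 1 library, was the least deeply counted of the 8.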
